A study of Mus musculus with 12 samples.

Results

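The DNA replication and S-phase genes are a group of 39 mouse genes named by symbol, from the subunits of the MCM helicase to the cyclins of the G1/S transition. All 39 were among the 12441 genes of the deposited tables. They were followed by RNA sequencing in bone marrow-derived macrophages, which are macrophages grown in culture from bone marrow cells. Red blood cells were lysed and the marrow was kept for 6 days in medium containing 10% L929-conditioned medium, which supplies the growth factor M-CSF. There were 12 libraries, 3 from each of 4 groups: unstimulated wild type (WT), WT given 100 ng/mL lipopolysaccharide (LPS) for 24 h, COQ6 D316Y unstimulated, and COQ6 D316Y given the same LPS treatment. D316Y cells are homozygous for a changed amino acid in COQ6, an enzyme of coenzyme Q synthesis, and the labels name no transgene or Cre. The labels state no age, sex or number of mice, so p-values measure the spread between these libraries, which may be technical. The tables hold values per gene, and the D316Y change itself could not be checked in them.

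Before a cell copies its DNA, the origin recognition complex with CDC6 and CDT1 loads the MCM2-7 helicase at origins in G1. Cyclin-dependent kinases, among other factors, then promote the joining of CDC45 and the GINS complex, which switch the helicase on. Primase and the polymerases copy both strands, and the clamp PCNA holds the polymerases in place. Ribonucleotide reductase and its partner enzymes supply deoxynucleotides. Most of these genes are targets of the E2F transcription factors. Macrophages grown from bone marrow divide in response to M-CSF, and LPS is known to stop that division.

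Reads assigned to the genes of the tables numbered 32.8 to 47.2 M per library, recovered from the deposited log2 CPM (counts per M reads). Macrophage markers dominated every library: the 12 fixed markers were all measured and summed to 32890 to 39820 CPM in the unstimulated libraries and 55250 to 71200 CPM with LPS. Of 10 markers of blood progenitors, which also divide, 2 were measured (Kit and Cd34), with a sum of 1.99 to 3.57 CPM in the unstimulated and 0.275 to 0.882 CPM in the LPS libraries. Of 8 erythroid markers, 1 was measured (Epor), at 0.656 to 2.67 CPM unstimulated and 0.0243 to 0.165 CPM with LPS. Neutrophil markers, 7 of 11 measured, summed to 71.4 to 95.1 CPM unstimulated and 197 to 235 CPM with LPS. Dendritic markers (4 of 7 measured) summed to 8.46 to 13.6 CPM unstimulated and 4.41 to 8.42 CPM with LPS, and the 1 measured T and NK marker (Cd4) stood at 4.51 to 11.3 and 1.35 to 3.74 CPM. The 1 measured B cell marker (Cd79b) stood at 3.39 to 5.61 CPM unstimulated and 6.24 to 9.20 CPM with LPS, and stromal markers (4 of 7 measured) summed to 1.07 to 4.89 and 4.58 to 9.70 CPM. The progenitor, erythroid, dendritic, and T and NK sums moved in the same direction as most of the replication genes described below. Their part in those differences was not tested. Unstimulated replicate 1 stood apart in both genotypes: mitochondrial genes took 0.449% of the reads in WT replicate 1 and 0.949% in D316Y replicate 1, against 1.97 to 2.97% in the other 4 unstimulated libraries and 0.658 to 1.10% in the LPS libraries.

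Upstream sequences of 3 members are shown because these genes moved together with LPS and each carries a word of the E2F recognition sequence. Each sequence is the 250 bases before a RefSeq transcript start (mouse build GRCm38.p6), 5′ to 3′ on the gene's strand, and capitals mark the matches. The Mcm5 window lies at chr8:75109259-75109508 on the plus strand, the Pola1 window at chrX:93632156-93632405 on the minus strand and the Uhrf1 window at chr17:56304063-56304312 on the plus strand. None of the 3 windows overlaps an exon of GENCODE M21, and the Uhrf1 window lies within an intron of the longer Uhrf1 transcripts of that annotation.
Mcm5 upstream: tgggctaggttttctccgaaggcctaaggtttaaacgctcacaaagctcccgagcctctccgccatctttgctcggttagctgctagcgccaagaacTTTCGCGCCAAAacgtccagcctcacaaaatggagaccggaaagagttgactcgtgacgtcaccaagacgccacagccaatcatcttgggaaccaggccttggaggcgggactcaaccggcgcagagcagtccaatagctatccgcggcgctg
Pola1 upstream: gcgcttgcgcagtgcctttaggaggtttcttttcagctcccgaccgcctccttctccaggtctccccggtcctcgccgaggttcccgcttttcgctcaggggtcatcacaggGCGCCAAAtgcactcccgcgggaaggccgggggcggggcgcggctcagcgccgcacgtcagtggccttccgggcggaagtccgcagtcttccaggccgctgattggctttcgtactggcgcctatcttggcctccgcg
Uhrf1 upstream: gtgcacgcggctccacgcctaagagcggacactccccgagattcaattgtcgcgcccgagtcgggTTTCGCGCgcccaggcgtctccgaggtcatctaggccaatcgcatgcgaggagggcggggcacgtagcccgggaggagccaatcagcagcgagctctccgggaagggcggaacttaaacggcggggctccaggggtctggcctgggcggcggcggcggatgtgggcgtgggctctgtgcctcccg

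The E2F word was searched as TTTCCCGC, TTTCGCGC, TTTGCCGC or TTTGGCGC on both strands. In Mcm5, TTTCGCGC on the gene's strand and TTTGGCGC on the opposite strand overlap, beginning 153 and 149 bases before the start. Uhrf1 holds TTTCGCGC at 185 bases and Pola1 holds TTTGGCGC on the opposite strand at 138 bases before the start. Among the 39 members, 33 had a RefSeq entry, and 9 of the 33 (27.3%) held at least 1 E2F word in a window: Orc1, Cdc6, Mcm5, Mcm6, Mcm7, Pola1, Rfc3, Uhrf1 and Cdk2. Over all genes of the tables with an entry, 362 of 8972 (4.04%) held one. Over all 27025 RefSeq genes it was 2.16%, or 1.86% of their 32851 windows of that length. In the lists described below, 5 of 36 other replisome and origin genes with an entry (13.9%) held one. Of the mitosis genes with an entry, 1 of 26 (3.85%) did. The general promoter word CCAAT was found in 60.6% of the members and 40.7% of the genes of the tables, and TTTGAA, the core of the CHR element of mitotic genes, in 12.1% and 13.0%. The median GC content of the windows was 59.6% in both. A match is a run of letters and not a measured binding site. Rfc3 and Cdk2 hold the word too, and their RNA changed little with LPS.

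In resting WT macrophages the members differed widely in level, compared here as CPM per kilobase of exon (n = 3). Pcna, the sliding clamp, was highest at 67.6 ± 9.81 (SD), and its lowest library was above the highest library of every other member. Rrm2, the regulated subunit of ribonucleotide reductase, followed at 25.9 ± 3.12, and its range overlapped that of Mcm5 at 21.4 ± 4.94, which in turn overlapped Mcm3 at 20.4 ± 5.50 and Mcm6 at 20.3 ± 5.13. After Mcm6 came a gap, with Mcm4 next at 10.5 ± 2.56. From Mcm4 down to Cdk2 (3.53 ± 0.218) each gene overlapped its neighbour. The lowest members were Ccne1 at 1.07 ± 0.214, Pola1 at 0.721 ± 0.0909, Orc1 at 0.652 ± 0.070, Pole at 0.351 ± 0.0137 and Chaf1a at 0.257 ± 0.0484. Among these, Pola1 and Orc1 overlapped, and Pole and Chaf1a stood apart from their neighbours. Ccne1 stood apart from Pola1 below it but overlapped Fen1, the next member above it.

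The 39 genes together took a smaller share of the reads with LPS than without. They held 0.161, 0.144 and 0.155% of the reads in the 3 unstimulated WT libraries and 0.0456, 0.0425 and 0.0424% after LPS. In D316Y the shares were 0.200, 0.134 and 0.134% unstimulated and 0.0372, 0.0414 and 0.0447% after LPS. Every LPS library was below every unstimulated library, by more than the counting error: the highest upper bound with LPS was 0.0462% and the lowest lower bound without was 0.133% (95% Wilson intervals, which cover counting error only). The 2 genotypes overlapped in both conditions, and D316Y unstimulated replicate 1 was the highest of all libraries. The share of a typical gene fell with LPS too. Scaled to table reads, the median log2 difference of all genes was -0.52 in WT and -0.54 in D316Y. RNA from bulk cultures does not separate fewer cycling cells from less RNA per cycling cell.

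**Figure D1:**
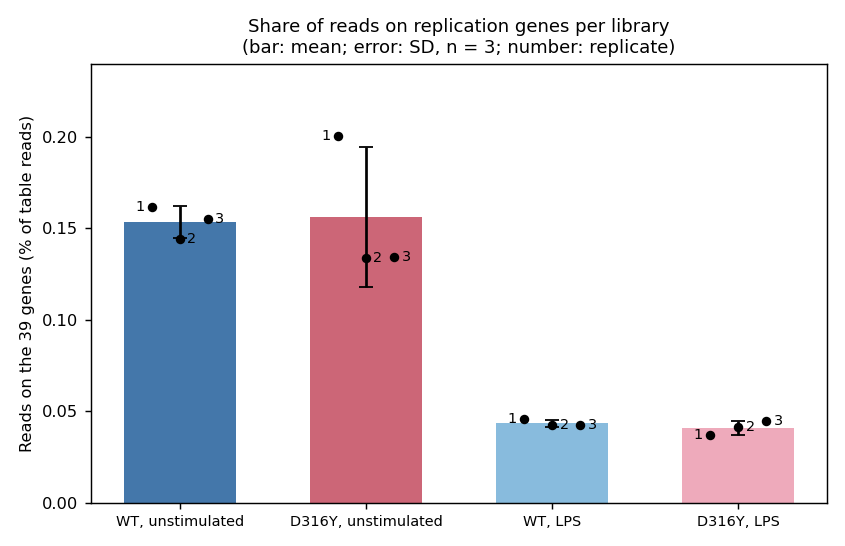
Share of table reads on the 39 replication genes in each library, in percent. Bars are group means, error bars are SD (n = 3) and points are libraries with their replicate number. The 6 LPS libraries lie between 0.0372 and 0.0456%, below all 6 unstimulated libraries, of which D316Y replicate 1 is highest at 0.200%.

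After 24 h of LPS, 35 of the 39 genes fell in WT macrophages and 0 rose (limma, Benjamini-Hochberg adjusted p under 0.05 over all 11918 genes tested), where 18.7% of all genes fell. The fall was at least 2-fold for 27 members, against 10.2% of all genes. The median member difference was -1.43 on the log2 scale and the median of all genes was -0.01. The differences ran from -2.28 in Uhrf1 to 0.35 in E2f1. The 4 members that did not pass were Fen1, Cdk2, Ccne1 and E2f1. In the other 35, no LPS library reached the level of any unstimulated WT library; 23.8% of all genes showed that separation.

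**Figure D2:**
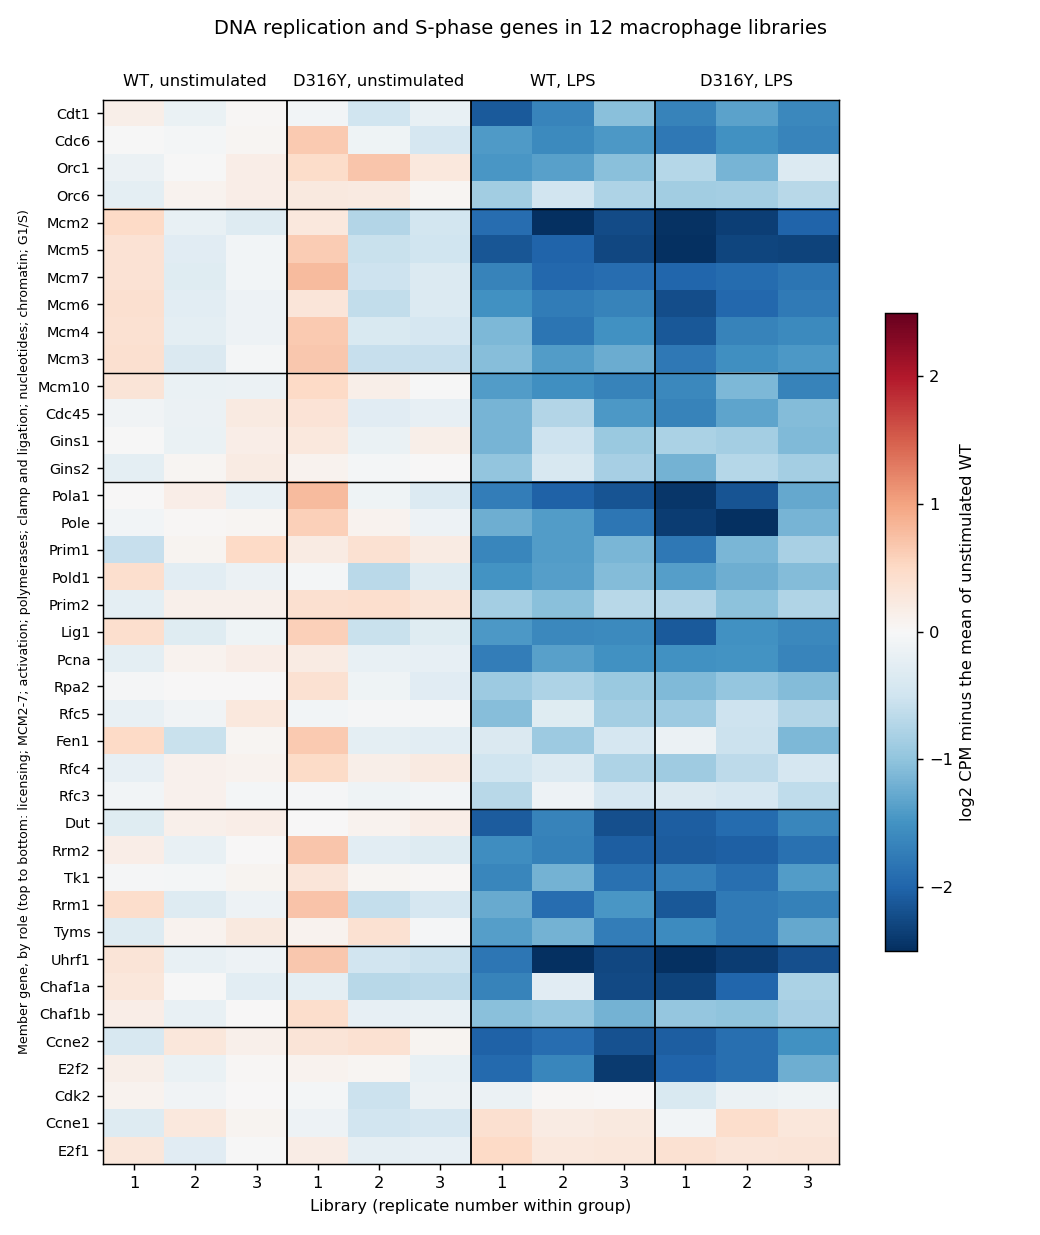
Level of each of the 39 genes in each of the 12 libraries, as log2 CPM minus the mean of unstimulated WT (colour scale from -2.5 to 2.5), with genes grouped by role. Blue columns on the right are the LPS libraries of both genotypes; Ccne1, Cdk2 and E2f1 at the bottom stay pale, and the MCM2-7 rows of unstimulated replicate 1 are above 0 (warm colours) in both genotypes.

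Origin licensing genes all fell in WT (4 of 4, median -1.39). Cdt1, which loads the helicase with CDC6, stood at 4.99, 4.67 and 4.87 log2 CPM in unstimulated WT and at 2.74, 3.19 and 3.81 with LPS, a fall of 3.02-fold (log2 -1.60 ± 0.23, adjusted p = 9.18e-05). Cdc6 stood at 3.52, 3.48 and 3.57 unstimulated and 2.10, 1.94 and 2.09 with LPS (-1.48 ± 0.22, adjusted p = 0.000169). Both LPS groups lie well below the unstimulated libraries, and Cdt1 was more spread than Cdc6 after LPS. The origin recognition subunits Orc1 and Orc6 fell 2.44-fold and 1.63-fold.

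The 6 subunits of the MCM2-7 helicase, the ring that unwinds the DNA, all fell, with the lowest median of the classes of 4 or more genes (-1.74). Mcm2 stood at 5.55, 4.87 and 4.74 log2 CPM unstimulated and 3.16, 2.40 and 2.82 with LPS, 4.79-fold lower (log2 -2.26 ± 0.28, adjusted p = 3e-05). Mcm5 stood at 6.75, 6.12 and 6.32 unstimulated and 4.26, 4.40 and 4.12 with LPS (-2.13 ± 0.27, adjusted p = 4.08e-05). In both genes replicate 1 was the highest unstimulated library, and no LPS library came near the unstimulated ones. Mcm7, Mcm6, Mcm4 and Mcm3 were 3.59, 3.13, 2.81 and 2.35-fold lower, so that the differences within 1 ring ran from -2.26 to -1.23, with standard errors of 0.22 to 0.29.

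Helicase activation genes fell as well (4 of 4, median -0.99). Mcm10, needed for the helicase to start moving, stood at 3.86, 3.36 and 3.38 log2 CPM and, with LPS, at 2.14, 1.99 and 1.86 (-1.53 ± 0.20, adjusted p = 5.62e-05). Cdc45, a part of the active helicase, stood at 3.22, 3.15 and 3.53 unstimulated and 2.14, 2.57 and 1.86 with LPS (-1.11 ± 0.23, adjusted p = 0.00211). The GINS subunits fell less, Gins1 1.83-fold and Gins2 1.67-fold; Gins2 shares 2758 bp of its exons with Gse1 on the opposite strand, and the strand setting of the counting is not stated, so reads of the pair cannot be told apart.

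All 5 polymerase and primase genes fell (median -1.38). Pola1, the catalytic subunit of the polymerase that extends the primer, stood at 2.68, 2.84 and 2.47 log2 CPM unstimulated and 0.94, 0.65 and 0.51 with LPS, 3.91-fold lower (-1.97 ± 0.33, adjusted p = 0.000335). Pole, the leading-strand polymerase, stood at 1.91, 2.00 and 2.02 unstimulated and 0.75, 0.57 and 0.17 with LPS (-1.47 ± 0.34, adjusted p = 0.00374). These are low-count genes, with 58 to 82 reads of Pola1 and 46 to 72 reads of Pole in the WT LPS libraries. Pold1, the lagging-strand polymerase, was 2.48-fold lower, and the primase subunits Prim1 and Prim2 were 2.61 and 1.82-fold lower.

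The clamp, clamp loader and Okazaki fragment genes fell in 6 of 7, with a smaller median (-0.74). Lig1, which seals Okazaki fragments, stood at 5.09, 4.36 and 4.56 log2 CPM and at 3.23, 3.07 and 3.08 with LPS (-1.55 ± 0.27, adjusted p = 0.000524). Pcna stood at 7.08, 7.41 and 7.50 unstimulated and 5.60, 5.97 and 5.81 with LPS (-1.54 ± 0.16, adjusted p = 5.83e-06). Lig1 was 2.93-fold and Pcna 2.90-fold lower, whereas the single-strand binding subunit Rpa2 was 1.82-fold and the loader subunits Rfc5, Rfc4 and Rfc3 were 1.67, 1.45 and 1.33-fold lower. Fen1, the flap nuclease, stood at 2.31, 1.24 and 1.86 unstimulated and 1.43, 0.89 and 1.38 with LPS, and its groups overlapped (-0.57 ± 0.34, adjusted p = 0.219); 2039 of its 2422 exonic bases overlap Gm10143 or Tmem258 on the opposite strand. The calls of Rfc3 and Rfc4 were near the threshold. The adjusted p of Rfc3 (0.0446 in limma) was between 0.0557 and 0.175 when any 1 of 9 libraries was left out. Some of these were D316Y libraries, without which the WT difference of Rfc3 stayed at -0.41. The adjusted p of Rfc4 (0.0244) was 0.0810, 0.0809 and 0.107 without WT unstimulated replicate 2, WT unstimulated replicate 3 and WT LPS replicate 3.

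Deoxynucleotide supply genes fell in 5 of 5 (median -1.57) over a narrow range. Dut, which keeps uracil out of DNA, stood at 3.30, 3.74 and 3.77 log2 CPM unstimulated and 1.52, 1.94 and 1.41 with LPS (-1.98 ± 0.19, adjusted p = 3.53e-06). Rrm2 stood at 6.33, 5.98 and 6.16 unstimulated and 4.60, 4.46 and 4.09 with LPS (-1.77 ± 0.23, adjusted p = 5.08e-05). Tk1, Rrm1 and Tyms, which salvage thymidine, reduce ribonucleotides and make thymidylate, were 2.96, 2.91 and 2.69-fold lower. The smallest fall of the class was thus larger than the median of the clamp and loader genes.

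Chromatin assembly genes fell in 3 of 3 (median -1.41). Uhrf1, which guides DNA methylation onto new strands, had the lowest difference of all 39, at 5.66, 5.16 and 5.21 log2 CPM unstimulated and 3.54, 2.59 and 3.06 with LPS (4.86-fold lower, -2.28 ± 0.31, adjusted p = 6.1e-05). Chaf1b of the histone chaperone CAF-1 was 2.08-fold lower. Chaf1a, its partner, stood at 1.45, 1.17 and 0.91 unstimulated and -0.50, 0.89 and -1.08 with LPS (-1.41 ± 0.49, adjusted p = 0.0371), from 19 to 70 reads with LPS, and 4648 of its 8854 exonic bases overlap Ubxn6. Its call was lost when any 1 of 5 libraries was left out: the adjusted p was 0.0903, 0.0775 and 0.0562 without WT unstimulated replicate 1, 2 or 3, and 0.0966 and 0.159 without WT LPS replicate 1 or 3. In a fit of the 2 WT groups alone it was 0.0519, and that of Rfc3 was 0.109; without trend and robust moderation that of Rfc3 was 0.0572.

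The G1/S control genes split. Ccne2, a cyclin E, stood at 3.53, 4.22 and 4.06 log2 CPM unstimulated and 1.91, 2.03 and 1.76 with LPS, 4.11-fold lower (-2.04 ± 0.20, adjusted p = 4e-06). The E2F activator E2f2 stood at 3.32, 3.00 and 3.20 unstimulated and 1.22, 1.54 and 0.78 with LPS (-2.00 ± 0.24, adjusted p = 2.33e-05). Their closest relatives among the members did not pass. Ccne1, the other cyclin E, stood at 1.17, 1.76 and 1.56 unstimulated and 1.90, 1.70 and 1.75 with LPS, with overlapping groups (0.29 ± 0.22, adjusted p = 0.342). E2f1 stood at 5.25, 4.67 and 4.96 unstimulated and 5.46, 5.23 and 5.25 with LPS, with 1 unstimulated library inside the LPS range (0.35 ± 0.16, adjusted p = 0.104). Without WT unstimulated replicate 1 the E2f1 difference was 0.50 with an adjusted p of 0.0237. Cdk2, the kinase that both cyclins activate, stood at 4.54, 4.37 and 4.46 unstimulated and 4.30, 4.49 and 4.47 with LPS (-0.04 ± 0.15, adjusted p = 0.873), and its difference was 0.01 without WT unstimulated replicate 1 and 0.02 without WT LPS replicate 1. These directions depend on the scaling. When reads were scaled to the table total and not to the authors' effective library size, the median of all genes shifted by -0.51. Calls among all genes went from 2231 lower and 2116 higher (51.3% lower) to 5928 lower and 934 higher (86.4% lower). With this scaling 37 members passed as lower, among them Cdk2 (-0.54, adjusted p = 0.00501 in limma) and Fen1 (-1.08, adjusted p = 0.0147). E2f1 and Ccne1 became negative at -0.16 and -0.22 and did not pass.

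In D316Y macrophages LPS lowered 34 of the 39 genes and raised 0, where 18.9% of all genes fell, and 27 members fell at least 2-fold, against 10.5% of all genes. The median was -1.49 (all genes -0.03). The members not passing were Fen1, Chaf1a, Cdk2, Ccne1 and E2f1. The D316Y comparison shares no library with the WT comparison, but both were fitted in 1 model with a common estimate of the spread.

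By role, all members fell in licensing (4, median -1.25), the MCM ring (6, -1.82), helicase activation (4, -1.15), polymerases and primase (5, -1.51) and nucleotide supply (5, -1.79). In the clamp and loader class 6 of 7 fell (-0.93), in chromatin assembly 2 of 3 and in G1/S control 2 of 5. Cdt1 stood at 4.78, 4.35 and 4.65 log2 CPM unstimulated and 3.18, 3.50 and 3.23 with LPS. Cdc6 stood at 4.18, 3.42 and 3.10 unstimulated and 1.74, 2.01 and 1.87 with LPS. Both licensing factors were lower in every LPS library. Mcm2 stood at 5.32, 4.32 and 4.60 unstimulated and 2.59, 2.71 and 3.05 with LPS. Mcm5 stood at 7.04, 5.83 and 5.89 unstimulated and 3.66, 4.11 and 4.08 with LPS, 4.95-fold lower (-2.31 ± 0.27, adjusted p = 1.83e-05). In Cdc6, Mcm2 and Mcm5 unstimulated replicate 1 was above its 2 partners by more than the partners differed.

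Mcm10 stood at 4.02, 3.67 and 3.52 unstimulated and 1.93, 2.40 and 1.86 with LPS. Cdc45 stood at 3.63, 3.01 and 3.10 unstimulated and 1.63, 1.97 and 2.23 with LPS. Both activation factors fell, with differences of -1.68 and -1.31. Pola1 stood at 3.45, 2.56 and 2.32 unstimulated and 0.22, 0.50 and 1.37 with LPS. Pole stood at 2.57, 2.06 and 1.85 unstimulated and -0.40, -0.57 and 0.82 with LPS, 4.63-fold lower (-2.21 ± 0.34, adjusted p = 0.000158). The 2 polymerases were the most scattered of these 4 with LPS, on 25 to 84 reads. Lig1 stood at 5.26, 4.12 and 4.36 unstimulated and 2.57, 3.16 and 3.06 with LPS. Pcna stood at 7.54, 7.14 and 7.12 unstimulated and 5.81, 5.83 and 5.69 with LPS. Pcna was tighter than Lig1 in both conditions. Dut stood at 3.62, 3.69 and 3.77 unstimulated and 1.55, 1.69 and 1.97 with LPS. Rrm2 stood at 6.86, 5.90 and 5.83 unstimulated and 4.07, 4.12 and 4.30 with LPS. Uhrf1 stood at 6.02, 4.87 and 4.81 unstimulated and 2.66, 2.98 and 3.15 with LPS (4.94-fold lower, -2.30 ± 0.31, adjusted p = 4.88e-05). In each of these genes the LPS libraries lay below all unstimulated ones. Ccne2 stood at 4.27, 4.32 and 4.01 unstimulated and 1.88, 2.05 and 2.43 with LPS. E2f2 stood at 3.27, 3.21 and 2.98 unstimulated and 1.18, 1.29 and 1.95 with LPS. Neither G1/S gene overlapped between conditions.

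Among the members that did not pass in D316Y, Fen1 stood at 2.45, 1.56 and 1.53 unstimulated and 1.65, 1.26 and 0.69 with LPS (-0.65 ± 0.34, adjusted p = 0.154). Chaf1a stood at 0.93, 0.49 and 0.53 unstimulated and -1.14, -0.81 and 0.38 with LPS, groups that do not overlap, with a difference of -1.17 ± 0.49, adjusted p = 0.0741. Cdk2 stood at 4.41, 3.92 and 4.30 unstimulated and 4.07, 4.31 and 4.35 with LPS (0.03 ± 0.15, adjusted p = 0.88). Cdk2 and Fen1 were the 2 members whose groups overlapped. Ccne1 stood at 1.37, 1.01 and 1.07 unstimulated and 1.42, 1.94 and 1.77 with LPS (0.56 ± 0.22, adjusted p = 0.06). E2f1 stood at 5.15, 4.75 and 4.76 unstimulated and 5.35, 5.27 and 5.28 with LPS (0.42 ± 0.16, adjusted p = 0.0564). In both genes every LPS library was above every unstimulated one, as in 26.5% of all genes. Calls near the threshold changed when single libraries were left out, and with the model. With limma's moderation run without trend and robust, Ccne1 passed as higher (adjusted p = 0.0358) and Rfc3 did not pass (0.0598), and in a fit of the 2 D316Y groups alone E2f1 passed as higher (0.0446). Without D316Y unstimulated replicate 1 the adjusted p was 0.0472 for Ccne1 and 0.0174 for E2f1. Without D316Y LPS replicate 1 it was 0.0420 for Ccne1, and without WT unstimulated replicate 1 it was 0.0447 for Ccne1 and 0.0288 for E2f1. E2f1 passed as well without WT unstimulated replicate 2 (0.0399). Chaf1a passed as lower without D316Y LPS replicate 3 (0.0222) or WT LPS replicate 2 (0.0323). Rfc3 (adjusted p = 0.0474) did not pass when any 1 of 9 libraries was left out (0.0563 to 0.163), and Rfc5 (adjusted p = 0.0119) did not pass without D316Y LPS replicate 1 (0.0585). Cdk2 was negative without D316Y unstimulated replicate 2, D316Y LPS replicate 2 or D316Y LPS replicate 3 (-0.11, -6e-04 and -0.02). Scaled to table reads, E2f1 was -0.10, and Cdk2 was -0.48 and passed as lower (adjusted p = 0.00997 in limma). Fen1 (-1.16, adjusted p = 0.00949) and Chaf1a (-1.69, adjusted p = 0.00935) passed as lower as well. The shift of all genes was -0.52, with 84.7% of calls lower in place of 49.5%.

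**Figure D3:**
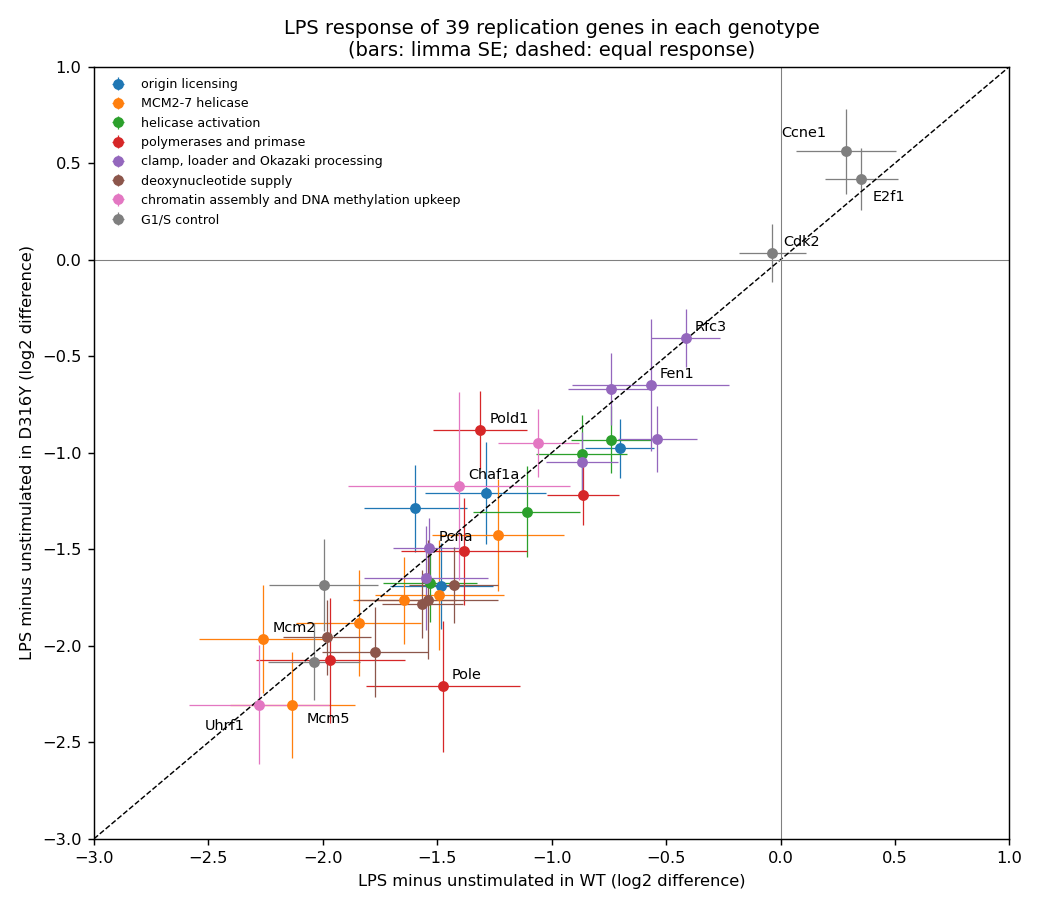
LPS response of each of the 39 genes in WT (horizontal) and D316Y (vertical), as log2 differences between LPS and unstimulated libraries, with limma standard errors as bars and colour for the role class. Most points lie along the dashed line of equal response between -0.41 and -2.31; Ccne1, E2f1 and Cdk2 lie apart near or above 0, and Pole lies farthest from the line at -1.47 and -2.21.

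The size of the LPS response did not differ detectably between genotypes for any member. In the interaction test 0 of 39 members passed, as did 0% of all 11918 genes (limma), and 0 members against 2.11% of all genes had an unadjusted p under 0.05. The D316Y response was the more negative in 25 members, with a median difference of -0.11. For 38 of 39 members the 2 responses were within 0.5 log2 units of each other, and Pearson's r between them over the 39 genes was 0.945, against 0.954 over all 11918 genes; these points share libraries and are a description only. The 95% interval of the difference lay within 1 log2 unit (2-fold) either way for 28 of 39 members.

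The 6 members with the smallest unadjusted p were Rfc4 (-0.39, 95% interval -0.91 to 0.13), Prim2 (-0.36, -0.83 to 0.12), Pole (-0.74, -1.77 to 0.30), Pold1 (0.43, -0.19 to 1.05), Orc6 (-0.27, -0.74 to 0.19) and Cdt1 (0.31, -0.38 to 0.99), each with an adjusted p of 0.999 in limma. Rfc4, a clamp loader subunit, stood at 3.68, 3.99 and 3.97 log2 CPM unstimulated and 3.38, 3.54 and 3.10 with LPS in WT, and at 4.35, 4.02 and 4.10 unstimulated and 2.99, 3.23 and 3.47 with LPS in D316Y. Prim2, the large primase subunit, stood at 3.39, 3.77 and 3.76 unstimulated and 2.79, 2.60 and 2.94 with LPS in WT, and at 4.03, 4.07 and 3.97 unstimulated and 2.91, 2.62 and 2.88 with LPS in D316Y. For both genes the genotypes overlapped with LPS and stood apart without it. Pold1 stood at 5.40, 4.71 and 4.82 unstimulated and 3.48, 3.60 and 3.90 with LPS in WT, and at 4.93, 4.31 and 4.65 unstimulated and 3.59, 3.76 and 3.90 with LPS in D316Y. Orc6 stood at 4.00, 4.33 and 4.42 unstimulated and 3.38, 3.78 and 3.48 with LPS in WT, and at 4.50, 4.48 and 4.29 unstimulated and 3.38, 3.41 and 3.55 with LPS in D316Y. Without D316Y unstimulated replicate 1 the median over the members was 0.11, and 13 members in place of 25 were negative.

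Unstimulated D316Y macrophages were compared with unstimulated WT to ask whether the COQ6 change alters these genes at rest. Of the 39 members, 0 passed, where 0.00868% of all 11525 genes did (1 gene, limma); with the replicate number as a block, 6 genes and 0 members passed. The 1 gene was lost when WT unstimulated replicate 2 or 3 or D316Y unstimulated replicate 2 or 3 was left out. Differences were negative in 21 and positive in 18, with a median of -0.02 (all genes -0.02), and 1 member, against 2.92% of all genes, had an unadjusted p under 0.05. The 95% interval lay within 2-fold either way for 38 of 39, Chaf1a being the exception (-1.14 to 0.09).

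Prim2, given above, had the smallest unadjusted p (0.38, 95% interval 0.02 to 0.74, adjusted p = 0.942 in limma). Orc1, the largest origin recognition subunit, stood at 1.04, 1.17 and 1.34 log2 CPM in WT and 1.65, 1.87 and 1.45 in D316Y (0.47, -0.04 to 0.99, same adjusted p). Prim2, Orc1 and Rfc4 (0.28, -0.09 to 0.65) were the 3 members with every D316Y library above every WT library, as in 2.95% of all genes, and 0 members had the reverse order (5.18%). Chaf1a (-0.53), Cdt1 (-0.25) and Cdk2 (-0.25), with libraries given above, had negative differences within overlapping groups.

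At rest 1 library stood apart from its group. D316Y unstimulated replicate 1 was the highest of its group in 32 of 39 members, where it was highest in 44.3% of all genes, and its median member was 0.42 log2 units above the mean of its 2 partners. The median SD of a member over this group was 0.258 log2 units, against 0.237 in unstimulated WT. Among the LPS groups it was 0.222 in WT and 0.238 in D316Y. Over all genes the median SD was 0.2496, 0.2385, 0.2277 and 0.1483 in these groups, in the same order. The members were thus about as spread as all genes, except in D316Y with LPS, where they were more spread. By class, the median level of D316Y unstimulated replicate 1 above its 2 partners was 1.12 in the MCM ring and 0.64 in chromatin assembly. It was 0.45 in polymerases and primase and 0.19 in licensing. WT unstimulated replicate 1 was higher by 0.58 in the MCM ring and by 0.41 in chromatin assembly, but was near its partners over all members (median 0.02, highest in 19). Both of these libraries had the low mitochondrial shares given above, whose part in the difference was not tested. Without D316Y unstimulated replicate 1 the median genotype difference was -0.21 with 29 of 39 members negative, and without both replicate 1 libraries it was -0.20, again with 29 negative; 0 members passed in either case. In the authors' deposited table of this comparison, 31 of 39 members had a negative log2 fold change, with a median of -0.169. The authors' deposited table gave 7 members a p under 0.05 and 0 an adjusted p under 0.05 (lowest 0.179). Of these 7, Pcna, Ccne1, Mcm3, Mcm5, Mcm6 and Cdk2 were negative and Prim2 was positive. The share of all genes under 0.05 in the authors' values was not counted, so the 7 cannot be set against a background.

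**Figure D4:**
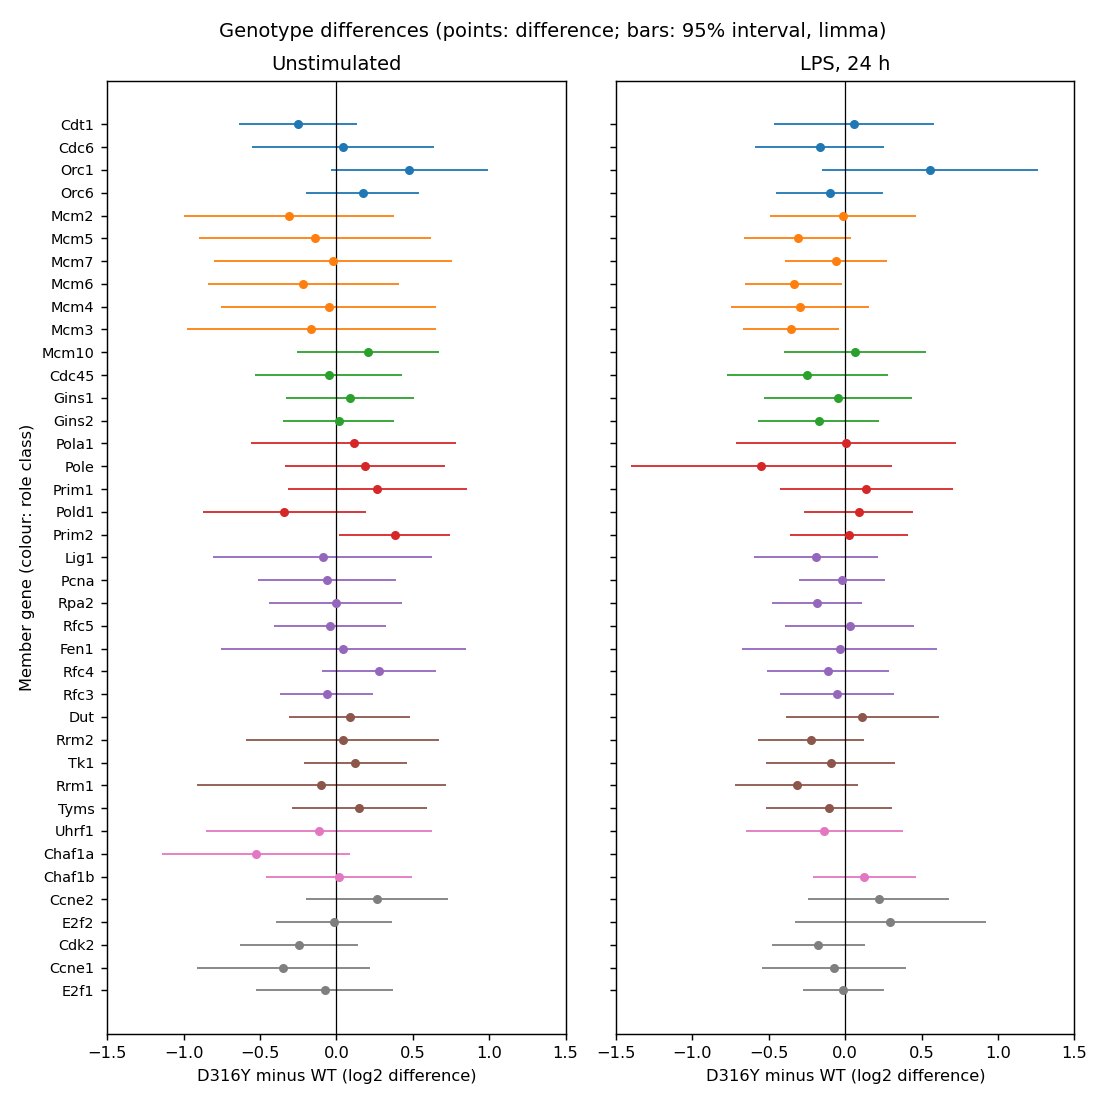
D316Y minus WT log2 difference of each member in unstimulated (left) and LPS-treated (right) macrophages, with 95% limma intervals as bars and colour for the role class. Nearly all intervals cross 0; those of Prim2 at rest and of Mcm3 and Mcm6 with LPS do not, and 0 members passed after adjustment. Chaf1a is missing on the right because its level was under the filter.

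With LPS, 38 members could be compared between genotypes (Chaf1a was under the level filter), and 0 passed, where 0.0442% of all 11306 genes did (5 genes, limma). Over all genes the count was 22 without WT LPS replicate 2, 2 without WT LPS replicate 3, and 3 without D316Y LPS replicate 1 or 3, with 0 members each time. The median was -0.07, 26 of 38 differences were negative, and 2 members had an unadjusted p under 0.05, against 6.5% of all genes. The 95% interval lay within 2-fold either way for 36 of 38, Orc1 (-0.15 to 1.26) and Pole (-1.40 to 0.31) being the exceptions.

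The MCM ring held the smallest unadjusted p-values. Mcm3 stood at 5.16, 4.83 and 4.98 log2 CPM in WT and 4.43, 4.69 and 4.78 in D316Y, 1.28-fold lower (-0.36, 95% interval -0.67 to -0.04, adjusted p = 0.693 in limma). Mcm6 stood at 5.02, 4.79 and 4.86 in WT and 4.32, 4.57 and 4.76 in D316Y (-0.34, -0.66 to -0.02, adjusted p = 0.734). With Mcm5 (-0.31, -0.66 to 0.04) and Rpa2 (-0.18) they were the 4 members whose D316Y libraries all lay below the WT libraries, as in 6.79% of all genes, and 0 members had the reverse order (5.7%). Without D316Y LPS replicate 1 the differences were -0.26 for Mcm3, -0.22 for Mcm6, -0.17 for Mcm5 and -0.13 for Mcm4, and without WT LPS replicate 1 that of Mcm4 was -0.11. Mcm4 stood at 4.09, 3.39 and 3.69 in WT and 3.09, 3.55 and 3.63 in D316Y (-0.30, -0.75 to 0.15), with overlapping groups. All 6 MCM2-7 subunits had a negative difference both at rest (-0.31 to -0.02) and with LPS (-0.36 to -0.01). These signs depended on which library was left out. At rest 4 of the 6 were positive without WT replicate 1, D316Y replicate 2 or D316Y replicate 3. All 6 stayed negative without D316Y replicate 1, the library that stood apart (-0.59 to -0.41), and without WT replicate 2 or 3. With LPS 2 of the 6 were positive without WT replicate 1, and 1 without WT replicate 3, D316Y replicate 1 or D316Y replicate 2. All 6 stayed negative there without WT replicate 2 or D316Y replicate 3. The unstimulated libraries of Mcm3, at 6.63, 5.86 and 6.18 in WT and 6.90, 5.64 and 5.64 in D316Y, overlapped widely, as did those of Mcm6 (6.93, 6.27 and 6.41 in WT and 6.84, 5.93 and 6.19 in D316Y) and Mcm4 (5.59, 4.96 and 5.08 in WT and 5.87, 4.83 and 4.79 in D316Y).

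Outside the ring, Rrm1, the large reductase subunit, stood at 4.82, 4.18 and 4.63 in WT and 3.96, 4.31 and 4.41 in D316Y with LPS (-0.32, -0.72 to 0.08). Orc1 stood at -0.28, -0.18 and 0.14 in WT and 0.47, 0.03 and 0.84 in D316Y, on 33 to 58 reads, with a positive difference as at rest (0.55). D316Y LPS replicate 1 was the lowest of its group in 27 of 39 members (32.3% of all genes). Without it the median difference over the members was -0.04 and 24 were negative. In the authors' deposited table of this comparison 27 of 39 members were negative (median -0.0673). The authors' deposited table gave 3 a p under 0.05 (Mcm6, Mcm3 and Rrm1, all negative) and 0 an adjusted p under 0.05 (lowest 0.31). Here too the share of all genes was not counted.

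Other genes of the pathway were taken from lists of known components. In WT, 21 of 45 other replisome and origin genes fell with LPS and 0 rose (median -0.46). They included Wdhd1 (-1.90) and Dscc1 (-2.70), which tie replication to cohesion of sister strands, and the PCNA partner Pclaf (-1.53). Of 20 other nucleotide supply genes, 10 fell and 3 rose (-0.55). Ctps (-1.75), which makes cytidine triphosphate, fell, as did Shmt1 (-1.43) and Adss (-0.75). Of 12 other chromatin replication genes, 8 fell and 1 rose (-0.62), with the histone chaperone Asf1b at -1.40, the remodeller Hells at -1.49, Rbbp7 at -0.94 and Nasp at -0.71. In D316Y the counts were 21 lower and 3 higher, 11 and 3, and 7 and 1. Each share can be read against the 18.7 and 18.9% of all genes that fell.

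Of 36 other regulators of the G1/S transition, 34 could be tested. In WT, 14 of the 34 fell and 4 rose (median -0.38), and in D316Y 16 fell and 6 rose (-0.46). Of all genes 18.7% fell in WT and 18.9% in D316Y. Of all genes 17.8% rose in WT and 19.2% in D316Y, so the rising share of these regulators was not above that of all genes. Myc, a growth regulator, stood at 4.79, 5.02 and 5.16 log2 CPM unstimulated and -1.14, -0.02 and 0.20 with LPS in WT (-5.31 ± 0.32), and at 5.50, 5.16 and 4.73 unstimulated and 1.09, 1.00 and 0.35 with LPS in D316Y (-4.32 ± 0.32). The S-phase cyclin Ccna2 and the E2F repressor E2f7 had differences of -2.16 and -2.98 in WT and -2.10 and -2.47 in D316Y, all past the threshold. The D-type cyclins, which start the passage through G1, did not move together. Ccnd1 stood at 6.29, 5.85 and 6.00 unstimulated and 2.60, 2.97 and 3.17 with LPS in WT (-3.14 ± 0.24, adjusted p = 3.35e-07). Ccnd2 stood at 4.23, 3.37 and 3.60 unstimulated and 5.07, 5.01 and 4.99 with LPS (1.29 ± 0.25, adjusted p = 0.00107), and Ccnd3 at 5.13, 4.63 and 4.95 unstimulated and 6.25, 6.07 and 6.11 with LPS (1.24 ± 0.14, adjusted p = 1.51e-05). So Ccnd1 fell while Ccnd2 and Ccnd3 rose, in WT and in D316Y alike (-2.78, 1.89 and 1.41).

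Cyclin-dependent kinase inhibitors, which block G1/S, differed by gene as well. Cdkn1a (p21) stood at 8.07, 7.50 and 7.55 unstimulated and 7.98, 8.10 and 8.05 with LPS in WT (0.34 ± 0.17, adjusted p = 0.15). In D316Y it stood at 7.28, 7.08 and 7.51 unstimulated and 8.10, 8.10 and 7.80 with LPS (0.71 ± 0.17, adjusted p = 0.00518). Cdkn1a thus passed as higher in D316Y and not in WT, and the difference between the genotypes did not pass (adjusted p = 0.999). Cdkn2d (p19) rose in both (0.84 and 0.79). Cdkn2b (p15) fell in both (-2.01 and -1.78). Cdkn2c (p18) was -0.48 ± 0.19, adjusted p = 0.0698 in WT and fell in D316Y (-0.61 ± 0.19, adjusted p = 0.0242), and Cdkn1b (p27) passed in neither (0.32 and 0.44). Scaling to table reads lowers every LPS difference by the shift given above, which turns Cdkn1a negative in WT and Cdkn1b negative in both genotypes. Cdkn1c (p57) was under the level filter, with 28 to 78 reads per unstimulated library and 0 to 5 reads per LPS library. In these lists, among the genes tested, and in the 31 mitosis genes, 0 genes passed in either genotype comparison or in the interaction (limma). Of the mitosis genes 29 fell and 1 rose with LPS in each genotype, with medians of -2.05 in WT and -2.06 in D316Y, below those of the replication genes; Kif23, Ccnb2, Ube2c and Cenpf were at -2.92, -2.76, -1.99 and -3.40 in WT.

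Some values are shared with neighbouring genes. Of the 39 members, 14 have exons that overlap another gene in GENCODE M21, and the strand setting of the counting is not stated. The widest are Chaf1a, Gins2 and Fen1, given above. Ccne2 shares 609 bp with Ints8, Mcm7 557 bp with Cops6, Ap4m1 and 2 microRNA genes, and Rfc5 499 bp with Wsb2. Pcna and Tyms have named processed copies (Pcna-ps1, Pcna-ps2 and Tyms-ps), between which and the parent gene reads could be split.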

How the data were processed

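RNA of 12 macrophage cultures (4 groups of 3 libraries) was sequenced, and both deposited tables hold the same values for 12493 entries, of which 52 repeated an identifier, leaving 12441 genes. The deposited values were taken to be log2 CPM, a unit inferred from the values and not named in the column headers. On this reading each is the logarithm of a gene's reads, with 0.5 added, divided by a library size the authors had adjusted. Whole reads then came out for 100% of values under 200 reads (tolerance 0.01). The tables also hold the authors' deposited fold changes on the log2 scale and p-values. The submitters' processing notes name STAR 2.5.1a, featureCounts 1.4.6-p5, Subread, bcl2fastq, edgeR and limma without their roles. The genome build, annotation and strand setting of the counting were not given in the sources used here. Total table reads of 32.8 to 47.2 M per library set the counting precision. Exon lengths, overlaps and positions came from GENCODE M21, in which 12433 identifiers were found, and 15 symbols that had turned into dates were restored.

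Differences were tested with limma 3.58.1 in R 4.3.3 (moderated with trend and robust, two-sided, Benjamini-Hochberg over all genes tested, threshold 0.05), on genes averaging 0 log2 CPM or more in 1 or more of the groups fitted. Genotype comparisons used their 6 libraries, and the LPS and interaction tests used all 12 in 1 fit. The code was tested on simulated data. Same-numbered unstimulated libraries of the 2 genotypes deviated together (correlations of 0.606, 0.527 and 0.154, each over 0.1), so the replicate block is given beside that comparison. Differently numbered libraries did so too: WT replicate 3 with D316Y replicate 2 at 0.357, and WT replicate 2 with D316Y replicate 3 at 0.281. The check therefore sets replicate 1 apart and cannot settle a pairing by number of replicates 2 and 3. The labels give only numbers. In the other comparisons not every same-numbered pair was over 0.1. The 39 members, the role classes and the other lists were chosen with earlier results of these data known. Library values are printed for the 2 members per class with the largest change with LPS in WT, for those that did not pass, and for the 6 smallest p-values in each genotype test. Other genes were named by their 4 smallest p-values per list in WT, with all D-type cyclins and kinase inhibitors. Of the genes this rule names, 2 are not reported here. Upstream sequences of 250 bases are RefSeq's (GRCm38.p6); they were printed for 1 member per class with an E2F word and the smallest p, and windows overlapping exons were left out after the files had been seen. Alternatives covered the filter, moderation, scaling, pseudocount, block, fit and each library left out.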

Additional observations from a re-analysis of the deposited data

How the results depend on the processing

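The count of members passing stayed at 0 in both genotype comparisons and in the interaction under every alternative run, and lay between 32 and 37 for LPS in WT and between 33 and 37 for LPS in D316Y. Of the 35 and 34 members that fell, 32 in each genotype passed under all 20 alternatives; the exceptions are Chaf1a, Rfc3 and Rfc4 in WT and Rfc3 and Rfc5 in D316Y. The median LPS difference was -1.94 in WT and -2.01 in D316Y when scaled to table reads; that scaling gave 6862 and 6959 called genes in place of 4347 and 4543. In WT it was -1.25 on the log2(CPM + 1) scale, which compresses low genes, and -1.34 without both unstimulated replicate 1 libraries. It ranged from -1.45 to -1.34 when 1 library was left out. The interaction median ranged from -0.22 to 0.11 when 1 library was left out.

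Signs turned for E2f1 (-0.16 in WT, -0.10 in D316Y), Ccne1 (-0.22 in WT) and Cdk2 (-0.48 in D316Y) when scaled to table reads. With libraries left out, Cdk2 ranged from -0.0812 to 0.0221 in WT and from -0.1116 to 0.1328 in D316Y, and was 0.0081 in WT without both unstimulated replicate 1 libraries. The cause was not tested. Over all genes, the D316Y difference at rest gave 1 call, 0 without the filter or without trend and robust moderation, 4 with all 12 libraries in 1 fit and 10 without both replicate 1 libraries. With LPS it gave 5, and 1 without trend and robust moderation or 3 when scaled to table reads.

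With the replicate number as a block, 6 genes were called at rest and 6 with LPS, and 0 members in either. For the LPS response the numbers did not pair the libraries (correlations of 0.34, 0.163 and -0.0302 in WT, -0.164, -0.212 and -0.0658 in D316Y, and -0.0959, 0.0567 and -0.0190 between genotypes with LPS). The block there gave 36 members in WT (35 lower, and E2f1 higher with an adjusted p of 0.0419 in limma) and 35 in D316Y (34 lower, and E2f1 higher, adjusted p of 0.0186). The block changed no other call among the members. The planned edgeR test on recovered reads was not run, because the deposited unit is a log2 value. Chaf1a, Pole and Pola1, with 16 to 84 reads in the LPS libraries, have standard errors of 0.49, 0.34 and 0.33, and Uhrf1, with more reads, has 0.31.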
